A study of Sus scrofa with 9 samples.

Results

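The X-linked microRNA (miRNA) cluster that holds miR-424 and miR-503 together with the miR-450 and miR-542 genes was followed in spleens of Ningxiang pigs, a native breed of China, on days 30, 90 and 210 after birth. Members were taken by name from the deposited table, as either arm of 6 precursors (ssc-miR-424, ssc-miR-503, ssc-miR-542, ssc-miR-450a, ssc-miR-450b and ssc-miR-450c), with any suffix after a _ sign ignored; the species prefix ssc is left out below. 9 entries matched, of 975 left after 5 repeated entries were dropped from 980. Each age was represented by 3 libraries (9 in all) of small RNA from whole spleen. The labels name no sex, treatment or genotype and do not say whether the replicates of an age are different animals, so p-values measure the spread between these libraries, which may be technical.

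A miRNA precursor is cut into a hairpin whose 5′ arm (5p) and 3′ arm (3p) can each give a mature miRNA, and bases 2 to 8 of the mature miRNA, the seed, are the main determinant of which transcripts it represses. The genes of this cluster lie close together on the mammalian X chromosome. In mouse and human cells miR-424 (named miR-322 in rodents) and miR-503 restrain the cell cycle by repressing cyclins and CDC25A, and miR-424 is known from monocyte differentiation and from endothelial cells in hypoxia. miR-542-3p is known in human cells for repressing survivin, an inhibitor of cell death. In the RefSeq gene table of assembly Sscrofa11.1, used here only for which genes neighbour each other, MIR450B, MIR450A, MIR450C and MIR542 follow each other on chromosome X between HPRT1 and PLAC1. Genes for miR-424 and miR-503 were not found in it, so these could not be placed beside the others in pig.

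The mature sequences show which members could act on the same transcripts and which could share reads. They are given as in the deposited table, 5′ to 3′ with T for U and the seed in capitals.
miR-424-5p: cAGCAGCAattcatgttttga
miR-503: tAGCAGCGggaacagtact
miR-424-3p: cAAAACGTgaggcgctgctat
miR-450a: tTTTGCGAtgtgttcctaat
miR-450c-5p: tTTTGCGAtgtgttcctaatac
miR-450b-5p: tTTTGCAAtatgttcctgaat
miR-450c-3p: aTTGGGAAcattttgcattcgt
miR-542-5p: tCGGGGATcatcatgtcacgaga
miR-542-3p: tGTGACAGattgataactgaaa

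The seed of miR-424-5p is that of the miR-15/16 family, and 6 pig entries of the table carried it, miR-424-5p included. miR-503 shares bases 2 to 7 with them and differs at the last base of the seed (A8G, counted from the 5′ end of miR-424-5p). miR-450a and miR-450c-5p carry the same seed, and the 20 bases listed for miR-450a are identical to the first 20 of miR-450c-5p, so that a read of this length fits both. miR-450b-5p differs from miR-450c-5p at 5 of 21 bases (A7G, A10G, G18A, A20T and T21A, from miR-450b-5p to miR-450c-5p), and A7G changes the seed. No other entry of the table shared a stretch of 15 bases with a member on either strand.

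Values are normalised read numbers scaled per library by the authors. The value that stands for 1 read was taken from the steps between low values, on the assumption that the commonest low value is 5 reads. Read this way, depth per library ran from 4.54 to 9.34 M reads (M, 1000000), with the least in day 210 replicate 3 and the most in day 90 replicate 3, and a value of 0 stands for fewer than about 5 reads. In 5 of the 9 libraries both miR-450c-5p and miR-450a stood at a whole number of reads plus 0.5. Their sum was whole in all 9, and none of the other 7 members had such a value. The pair is therefore uncertain as separate levels, since reads that fit both were split.

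The cluster was scarce in spleen. Its 9 entries together made up 125, 125 and 171 parts per 1000000 (ppm) of all values in day 30 replicates 1, 2 and 3. The figures were 70.6, 69.02 and 76.4 ppm at day 90, and 83.9, 61.8 and 109.9 ppm at day 210. On this scale all day 30 libraries lay above all others, and day 210 straddled the narrow range of day 90. On the deposited scale the sum averaged 908 ± 182 in the day 30 libraries, 488 ± 47.5 in those of day 90 and 641 ± 153 in those of day 210 (SD, n = 3). There days 30 and 210 overlapped, with day 210 replicate 3 at 798 and day 30 replicate 1 at 779.9. By geometric means it was 1.84-fold lower at day 90 than at day 30 (log2 -0.88) and 1.42-fold lower at day 210 (log2 -0.51), against a pooled SD between libraries of 0.27 on the log2 scale. These sums get no test, because the members were chosen with earlier results of these data known.

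**Figure D1:**
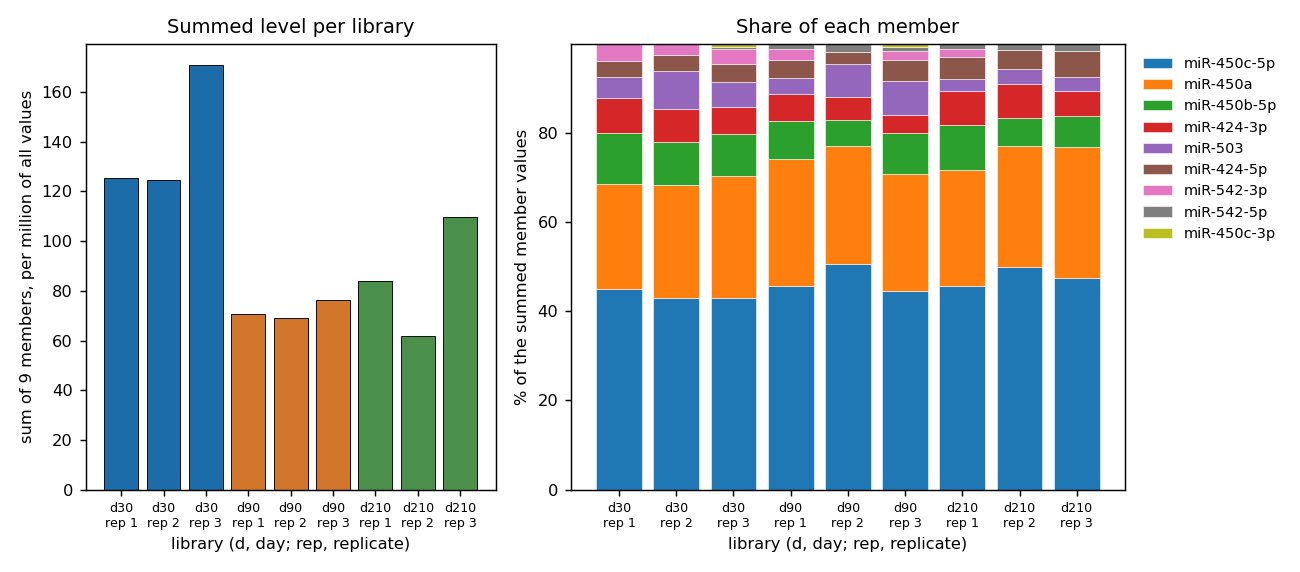
Summed level of the 9 members in ppm of all values (left, bars) and the percentage that each member held of that sum (right, stacked bars) in each of the 9 libraries. The day 30 libraries stand between 125 and 171 ppm and the others between 61.8 and 109.9, while the 3 miR-450 precursors make up 78.1% to 83.8% of the sum in every library.

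The miR-450 members dominated the cluster. miR-450c-5p was the most abundant member, averaging 310 over the 9 libraries, which ranked it 226th of the 975 entries, followed by miR-450a (181) and miR-450b-5p (60.2), and this order of the first 3 held in each of the 9 libraries. A small RNA read covers the whole mature sequence, so levels were not divided by length. Next came miR-424-3p (43.7), miR-503 (35.7) and miR-424-5p (28.7). These neighbours were not separated by the spread, since miR-424-3p lay above miR-503 in 6 of the 9 libraries and miR-503 above miR-424-5p in 5. miR-542-3p (13.4), miR-542-5p (5.48) and miR-450c-3p (1.39) were close to the level of 5 reads, which ran from 3.62 to 8.001 between libraries. At day 30, though, miR-542-3p stood at 20.03 to 36.2.

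Of the 9 members 8 reached a value of 5 in 3 or more libraries and were tested. miR-450c-3p was not, and miR-542-5p passed this filter only with the help of day 210, where all 3 of its values were above 5. The test was limma on log2(value + 1) over all 630 entries that passed, with Benjamini-Hochberg adjusted p over those 630 and a threshold of 0.05. Fold changes are on this log scale. It understates changes of low values above 0, but can overstate changes where libraries stand at 0.

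miR-424-3p, the arm of the miR-424 hairpin opposite the one with the miR-15/16 seed, separated the 3 ages completely. Its values were 61.1, 60.1 and 68.1 in day 30 replicates 1, 2 and 3, then 27.8, 24.4 and 22.04 at day 90 and 48.0002, 37.4 and 44.8 at day 210, which is between 24 and 94 estimated reads. Every day 30 value lay above every day 210 value, and every day 210 value above every day 90 value. It differed over the 3 ages by limma's F test (adjusted p 0.0451), with group means of 63.1 ± 4.34, 24.7 ± 2.89 and 43.4 ± 5.42 (SD, n = 3). No single pair of ages passed: the log2 change was -1.32 ± 0.30 (SE) at day 90 against day 30 (limma adjusted p 0.0857), 0.79 ± 0.30 at day 210 against day 90 (0.132) and -0.53 ± 0.30 at day 210 against day 30 (0.267). It was the only 1 of the 8 tested members to pass the F test, which called 65 of all 630 entries (10.3%), so at the adjusted threshold the share of members called is close to that of the table. An unadjusted F p under 0.05 was reached by 6 of the 8 members (all but miR-424-5p and miR-450a, and with miR-542-5p among the 6), beside 31.4% of all entries. The F call was lost when 1 library was left out in 7 of 9 cases, namely any of day 30, any of day 90 or day 210 replicate 2 (adjusted p 0.0664 to 0.129), and also with no filter (0.128) and with the replicate block (0.0925).

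miR-424-5p, the arm with the seed of the miR-15/16 family, stood at 27.2, 30.5 and 44.2 at day 30, 18.2, 13.2 and 26.6 at day 90 and 30.9, 20.7 and 46.4 at day 210. All day 90 values were below all day 30 values, though narrowly, and day 210 overlapped both. The change at day 90 against day 30 was -0.80 ± 0.44 on the log2 scale and at day 210 against day 30 it was -0.10 ± 0.44 (limma adjusted p 0.434 and 0.915). miR-424-3p exceeded miR-424-5p in 7 of the 9 libraries, by 1.54-fold to 2.25-fold at day 30. The exceptions were replicate 3 of day 90 (ratio 0.829) and replicate 3 of day 210 (ratio 0.966), and the ranges of the arm ratio overlapped between ages.

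miR-503, known beside miR-424 as a repressor of cell cycle genes, had a different course. It stood at 36.5, 70.6 and 63.7 at day 30, 16.3, 33.5 and 41.05 at day 90 and 17.1, 16.8 and 25.6 at day 210. The day 210 values were all below those of day 30, and day 90 overlapped both. The log2 change was -0.93 ± 0.45 at day 90 and -1.45 ± 0.45 at day 210, both against day 30 (limma adjusted p 0.378 and 0.0681), and -0.52 ± 0.45 at day 210 against day 90 (0.497). Relative to miR-424-3p, miR-503 stood at 0.597, 1.17 and 0.936 at day 30, 0.586, 1.38 and 1.86 at day 90 and 0.356, 0.448 and 0.571 at day 210. The day 210 ratios were thus below all 6 ratios of the earlier ages, though narrowly (0.571 against 0.586), while days 30 and 90 overlapped. At day 210 miR-503 held only 16, 13 and 16 estimated reads. The ratio of miR-503 to miR-424-3p was noticed in the data and was not tested.

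miR-450c-5p stood at 350.5, 357 and 480.4 at day 30, 208, 236 and 241 at day 90 and 289.6, 246 and 379 at day 210. On this deposited scale all 3 values of day 90 were below every value of the other ages, and days 30 and 210 overlapped. As a share of all values of its library, day 210 replicate 2 instead lay below the day 90 libraries, and day 30 lay above day 210 without overlap. The log2 change at day 90 against day 30 was -0.78 ± 0.23 (limma adjusted p 0.156). miR-450a, which shares reads with it, ran from 184 to 304 at day 30, from 123 to 143 at day 90 and from 134 to 235 at day 210, with a log2 change of -0.78 ± 0.28 at day 90 (0.224). The ratio of miR-450c-5p to miR-450a averaged 1.73 ± 0.164, 1.74 ± 0.162 and 1.74 ± 0.116 at the 3 ages in turn (SD, n = 3), and since shared reads were split between them it does not measure the precursors separately.

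miR-450b-5p, whose seed is its own, stood at 89.96, 81.1 and 105 at day 30, 39.3, 27.4 and 49.4 at day 90 and 64.0002, 30.99 and 54.4 at day 210. Every day 30 value was above every later one, and days 90 and 210 overlapped. The log2 change was -1.26 ± 0.37 at day 90 (limma adjusted p 0.156) and -0.93 ± 0.37 at day 210 (0.130), both against day 30. miR-450c-3p, the other arm of the miR-450c hairpin, was above 0 only in day 30 replicate 3 (8.69, 12 estimated reads) and day 90 replicate 3 (3.80, 5 reads), which were the deepest libraries with an estimated 9.02 and 9.34 M reads. Its 5p partner had 663.5 and 317.5 reads in those libraries.

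The arms of miR-542 lay near the limit of what was listed, except for the 3p arm at day 30. miR-542-3p stood at 30.6, 20.03 and 36.2 at day 30, at 11.5, 0 and 10.6 at day 90 and at 11.7, 0 and 0 at day 210. miR-542-5p stood at 0, 0 and 5.07 at day 30, at 4.79, 8.13 and 4.56 at day 90 and at 7.47, 6.46 and 12.8 at day 210. In estimated reads, day 30 held 36, 21 and 50 of the 3p arm beside 0, 0 and 7 of the 5p arm, whereas day 210 held 11, 0 and 0 of the 3p arm beside 7, 5 and 8 of the 5p arm. All day 30 libraries thus had more of the 3p arm, and 2 of the 3 day 210 libraries listed only the 5p arm. The log2 change of miR-542-3p at day 210 against day 30 was -3.64 ± 1.22 and did not pass (limma adjusted p 0.0845). That of miR-542-5p was 2.39 ± 0.83 and is a description only, since it entered the test through its day 210 values. The size of both depends on the values at 0. For the 5p arm the rise itself does so, since this arm held 5 to 8 estimated reads wherever it was listed. With every value below 8.001 raised to that level the change was -1.53 for the 3p arm, which then passed (limma adjusted p 0.0177). For the 5p arm it was then 0.21 (0.465). The 3p arm also passed with a pseudocount of 5 (0.0495) and without day 210 replicate 1 (0.0259). These 3 settings, which called 38, 65 and 72 of all entries in turn, were the only ones of 20 alternatives in which it passed. Over the 20 its limma adjusted p ran up to 0.213.

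**Figure D2:**
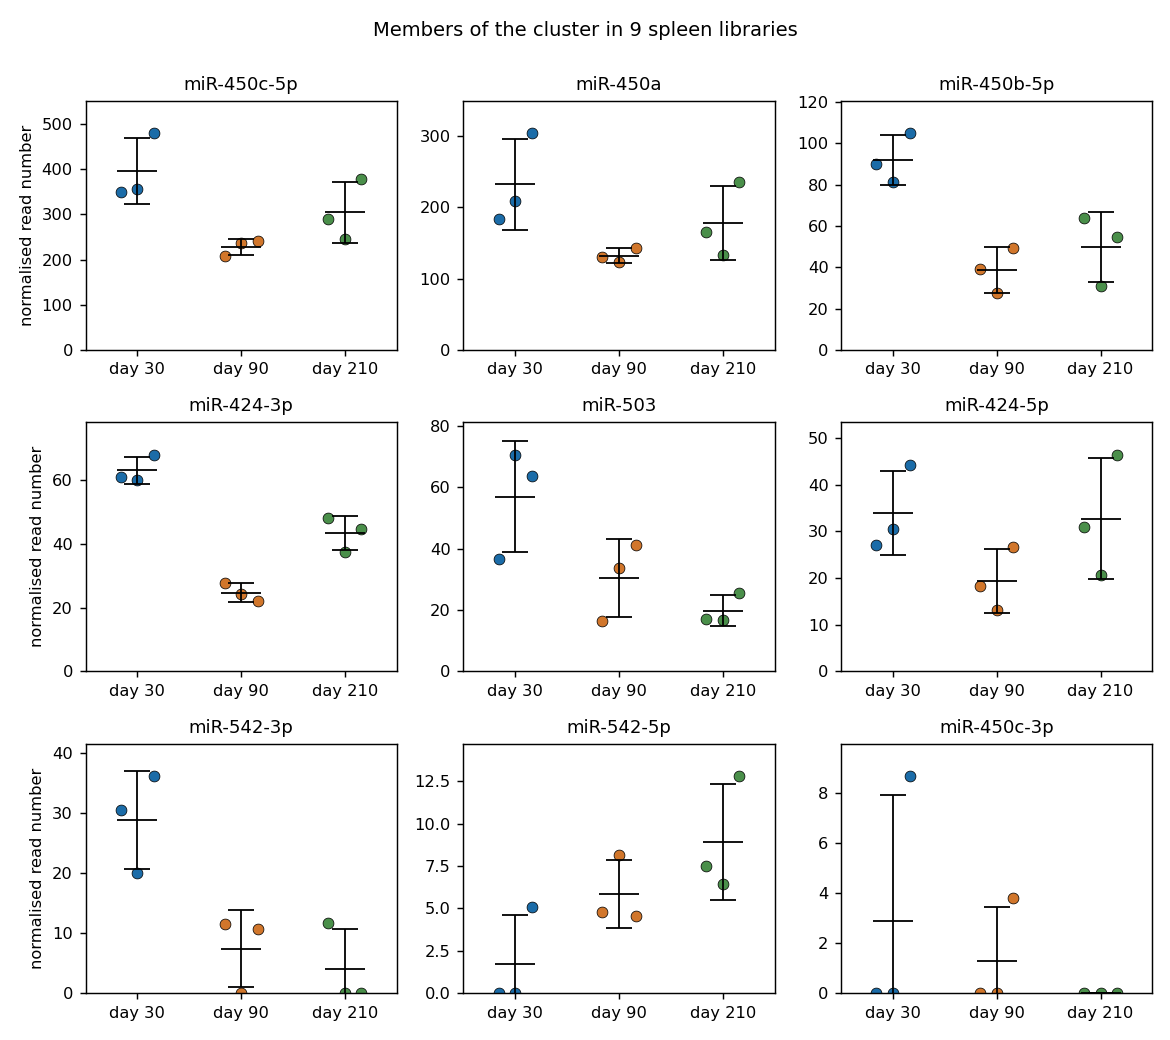
Normalised read number (y axis, from 0) of each of the 9 members at days 30, 90 and 210 (x axis); points are the 3 libraries of an age, the long bar is their mean and the whiskers are ± 1 SD, drawn down to 0 at the lowest. miR-424-3p separates the 3 ages with values of 60.1 to 68.1, 22.04 to 27.8 and 37.4 to 48.0002, and miR-503 and miR-542-3p have their lowest means at day 210.

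The first comparison asks what differed between day 30 and day 90. Of the 8 tested members 7 had lower values at day 90, with a median log2 change of -0.87 against -0.04 over all 630 entries, of which 53.7% had lower values. None of the 8 passed the threshold by limma, which called 7 of 630 entries (1.11%), and an unadjusted p under 0.05 was reached by 4 lower members and by miR-542-5p, which was higher, beside 15.2% of all entries. In 6 members (both arms of miR-424, miR-450a, miR-450b-5p, miR-450c-5p and miR-542-3p) every day 90 library lay below every day 30 library, which was so for 13.8% of all entries. No member lay above without overlap, beside 14.1% of all entries. These counts describe members of a genomic cluster known in mammals, some of which share reads, and are not independent of each other. In whole tissue, fewer cells that carry a miRNA and less of it per cell cannot be told apart. The sum of the lymphoid marker miRNAs was mostly miR-150 and miR-342 (mean values 73096 and 62631). It lay at 106237 to 118844 at day 30, 123782 to 152425 at day 90 and 170801 to 173893 at day 210, without overlap. Of its 4 entries 2 had higher and 2 lower values at day 90 against day 30, and again at day 210 against day 90. The pan-blood marker sum lay at 11135 to 17337 at day 30 and 19565 to 26441 at day 90. Neural and epithelial marker sums were also higher at day 90 without overlap. Lower in value at day 90 were all 3 endothelial entries, 3 of 4 erythroid, 3 of 4 smooth muscle, 4 of 5 striated muscle and 4 of 5 fibroblast entries. The part of these markers in the cluster's values was not tested. With only days 30 and 90 in the fit, 3 members (miR-424-3p, miR-450c-5p and miR-450b-5p) passed by limma (adjusted p 0.0202 to 0.0482), where 29 of all entries were called. With sample weights these 3 and miR-450a passed (0.00996 to 0.0214), where 81 were called.

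The second comparison sets day 210 against day 30. Again 7 of the 8 tested members had lower values and 1, miR-542-5p, a higher one, with a median log2 change of -0.46 against -0.15 over all entries, of which 57.8% had lower values. None passed, where limma called 58 of 630 entries (9.21%), and an unadjusted p under 0.05 was reached by 3 lower members and by miR-542-5p, beside 29.4% of all entries. The libraries did not overlap in 4 lower members (miR-424-3p, miR-450b-5p, miR-503 and miR-542-3p), beside 18.1% of all entries, and in 1 higher member, beside 12.1%, which is miR-542-5p, tested because of its day 210 values. miR-503 passed when the libraries were scaled to the same sum (log2 -1.67, limma adjusted p 0.0350), with sample weights (0.0366) and without day 210 replicate 3 (0.0466). In these settings 92, 109 and 90 of all entries were called, more than in the main fit. They were 3 of 20 alternatives, over which its limma adjusted p ran up to 0.188.

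The third comparison, day 210 against day 90, went mostly the other way. Of the 8 tested members 6 had higher values at day 210 and 2, miR-503 and miR-542-3p, lower ones. The median log2 change was 0.39 against -0.14 over all entries, of which 56.7% had lower values. None passed, where limma called 51 of 630 entries (8.1%), and 1 had an unadjusted p under 0.05, beside 27.1% of all entries. On the deposited scale the libraries did not overlap in 2 higher members, beside 13.3% of all entries, and in no lower member, beside 15.9%. These 2 were miR-424-3p and miR-450c-5p (log2 0.39 ± 0.23, limma adjusted p 0.286). As a share of all values the libraries of miR-450c-5p did overlap, and scaling to the same sum gave it a log2 change of 0.23 (limma adjusted p 0.538). The comparisons share libraries, so their values for a member are not independent.

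**Figure D3:**
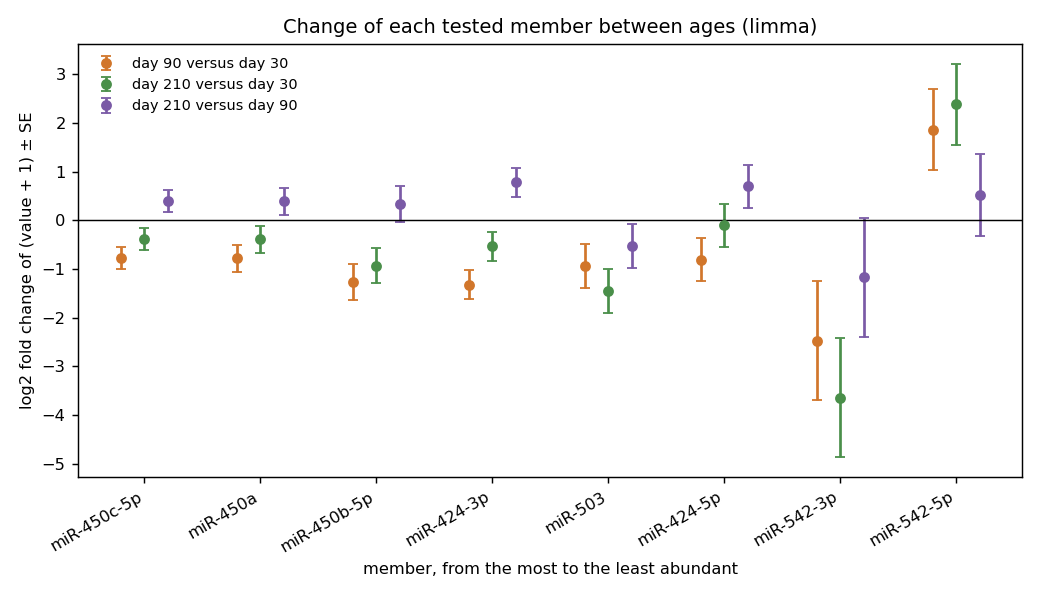
Log2 fold change of (value + 1) with its SE by limma (y axis) for the 8 tested members (x axis) in the 3 comparisons of ages, n = 3 libraries per age. The day 90 points of 7 members lie below 0, and miR-503 and miR-542-3p differ from the others in lying below 0 also at day 210 against day 90.

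Libraries of an age also differed from each other across members. Over the 6 members above 0 in all libraries, replicate 3 was the highest of its age in 5 members at day 30, in 5 at day 90 and in 4 at day 210, and day 210 replicate 2 was the lowest of its age in all 6. Replicate 3 was the deepest library at days 30 and 90 but the shallowest at day 210 (an estimated 9.02, 9.34 and 4.54 M reads). The part of depth in these differences was not tested.

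**Figure D4:**
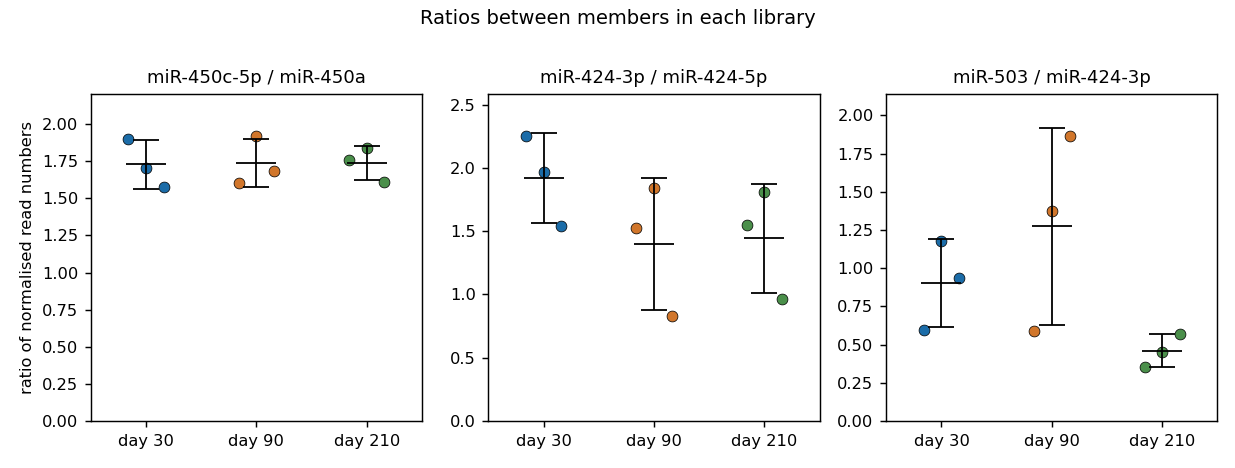
Ratio of normalised read numbers (y axis, from 0) between pairs of members at each age (x axis); points are the 3 libraries, the long bar is their mean and the whiskers ± 1 SD. The ratio of miR-503 to miR-424-3p lies between 0.356 and 0.571 at day 210 and, with a narrow gap, between 0.586 and 1.86 at the earlier ages.

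The values of the other pig miRNAs with the miR-424-5p seed took another course. These are miR-15a, miR-15b, miR-16, miR-195 and miR-497, known as repressors of cell cycle and survival genes, all of which were far more abundant. miR-15b averaged 23951 against 28.7 for miR-424-5p. At day 90 against day 30 all 5 had higher values, with a median log2 change of 0.34 and none called by limma. miR-195 and miR-497, which come from a shared transcript, were called higher at day 210 than at day 30 (log2 1.47 ± 0.23 and 1.17 ± 0.16, limma adjusted p 0.00577 and 0.00388) and than at day 90 (0.89 ± 0.23 and 0.83 ± 0.16, adjusted p 0.0395 and 0.0185). They are shown with miR-16 so that the bases after the shared seed can be set against those of miR-424-5p. A difference between these miRNAs and the cluster was not tested.
miR-16: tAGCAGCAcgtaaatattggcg
miR-195: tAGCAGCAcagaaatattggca
miR-497: cAGCAGCAcactgtggtttgt

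The values of other X-linked miRNAs also took another course. A list of miRNAs known to be X-linked in mammals matched 34 entries, of which 32 were tested. At day 90 against day 30 their median log2 change was 0.26, with 26 higher and 6 lower values, and 2 were called higher by limma (miR-452 by 4.21 ± 0.58 and mir-452-p3 by 4.12 ± 0.73 on the log2 scale, named for 1 precursor) and 0 lower. Their median at day 210 against day 30 was -0.18, with 1 called higher (miR-452) and 2 lower (miR-224 and mir-20b-2-p3). At day 210 against day 90 it was -0.42, with 0 called higher and 4 lower (miR-224, miR-221-3p, mir-20b-2-p3 and mir-452-p3). miR-363, the most abundant of them, stood at 0.28 ± 0.14 at day 90 against day 30 (limma adjusted p 0.395), and miR-106a, the nearest other miRNA gene listed on the MIR450B side, at 0.13 ± 0.22 (0.872). Over all 630 entries the medians of the 3 comparisons in turn were -0.04, -0.15 and -0.14, and 1.11%, 9.21% and 8.1% were called. At day 210 against day 30 the list thus lay near all entries. The difference between this list and the cluster was not tested.

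miRNAs of the imprinted DLK1-DIO3 locus, a large cluster known for its expression in growing and fetal tissue, had low values at day 90 as the cluster did, though not low values at day 210. Of 24 entries 22 were tested, and 20 had lower values at day 90 than at day 30 (median log2 change -0.90, 0 called higher and 1 lower by limma). At day 210 against day 90, 20 had higher values (median 0.81, 1 called higher and 0 lower), and at day 210 against day 30 the median was 0.02 with none called. miR-127, the most abundant of them, was the one called higher at day 210 than at day 90 (log2 1.21 ± 0.23, adjusted p 0.0185). Likeness between this list and the cluster was not tested. The imprinted miR-483 and miR-675 of the IGF2/H19 locus matched no entry.

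**Figure D5:**
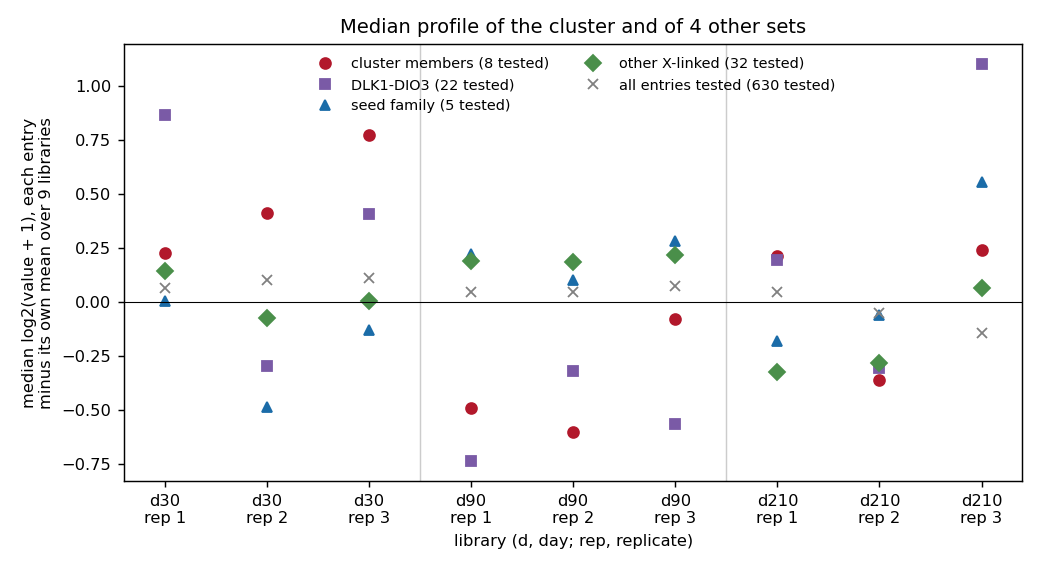
Median over the tested entries of a set of log2(value + 1), each entry minus its own mean over the 9 libraries (y axis), in each library (x axis), for the cluster (8 entries), the DLK1-DIO3 list (22), the miRNAs with the miR-424-5p seed (5), other X-linked miRNAs (32) and all entries tested (630). The cluster medians lie between 0.22 and 0.77 at day 30 and between -0.60 and -0.08 at day 90, where the seed family lies between 0.10 and 0.28.

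The entries whose profile over the 9 libraries was most like that of the cluster were sought among 295 pig miRNAs with a mean value of at least 50. The profile was the mean of the centred log2(value + 1) of the 3 members with such a mean (miR-450a, miR-450b-5p and miR-450c-5p, of which 2 share reads), and likeness was the root mean square difference from it in log2 units. miR-424-5p and miR-424-3p, which were not used to build it, differed from it by 0.27 and 0.28, and miR-503 by 0.57. The members at 0 in some libraries differed by 1.06 (miR-450c-3p), 1.51 (miR-542-5p) and 1.84 (miR-542-3p). These and miR-503 lay further from it than a flat profile would (0.45), so it does not stand for all members. The nearest non-member was miR-323 (0.31), from the DLK1-DIO3 locus, at 468, 336 and 565 at day 30, 145, 208 and 162 at day 90 and 290.1, 214 and 272 at day 210. All 3 of its day 90 values lay below its other values. It was lower at day 90 than at day 30 by limma (log2 -1.39 ± 0.26, adjusted p 0.0330). Because miR-323 was picked in these same libraries for likeness to a profile low at day 90, the choice itself favoured such a fall. Next came mir-10b-p3, 1 of 3 tested entries of let-7e, miR-143-5p, miR-326, miR-126-3p, miR-152, let-7i-3p, mir-342-p5 and miR-455-5p, with differences of 0.33 to 0.36. Among these, miR-143-5p is a marker of smooth muscle, miR-126-3p of endothelial cells and mir-342-p5 of lymphoid cells. Each is a single entry and does not stand for the other markers of its cell type. A flat profile would differ by 0.45 and the median candidate by 0.57. Of these 10 entries 1, miR-323, was called by limma in a pairwise comparison.

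Marker miRNAs of the cell types that spleen can hold were summed per library beside the cluster. Of the lymphoid, pan-blood and myeloid markers, all entries but mir-223-p5 were above 0 in every library, with miR-150 at a mean value of 73096, mir-142-p5 at 17451 and miR-223 at 6969. The entries called within the lists were miR-150 (log2 0.75 ± 0.12 at day 90 and 0.94 ± 0.12 at day 210, both against day 30) and miR-342 (0.56 ± 0.12 at day 210 against day 90) among lymphoid markers. Erythroid miR-486 and mir-144-p5 were lower at day 210 than at day 30 (-1.23 ± 0.21 and -1.54 ± 0.36), and miR-145-5p of smooth muscle, miR-133b of striated muscle and miR-205 of epithelium were higher there (0.78 ± 0.17, 1.62 ± 0.36 and 2.59 ± 0.63). Both miR-145-5p and miR-133a-3p were higher at day 210 than at day 90 (1.17 ± 0.17 and 1.04 ± 0.20). These entries do not stand for their lists. At day 210 against day 30, 3 erythroid entries had lower and 1 higher values (median log2 change -1.23), 3 of smooth muscle higher and 1 lower (0.32), all 5 of striated muscle higher (0.46) and 2 of epithelium higher and 1 lower (0.01). Lymphoid entries were 3 higher and 1 lower in that comparison (0.45), and 2 higher and 2 lower in value both at day 90 against day 30 (0.26) and at day 210 against day 90 (0.06). Of the 12 marker lists none had all day 90 sums below all day 30 sums. The sum of the DLK1-DIO3 list did, at 10111 to 14782 at day 30 and 6554 to 9454 at day 90, but it stood at 11725 to 23511 at day 210. The endothelial sum (3 entries of miR-126) ran from 50274 to 64233 at day 30, 40192 to 51883 at day 90 and 37837 to 45799 at day 210. The sum of the fibroblast list (5 entries of miR-199 and miR-214) ran from 85169 to 122567, 78940 to 116689 and 89769 to 91258 at the same ages, overlapping throughout. Of the 38 marker entries 5 were listed at 0 in some library (miR-141, miR-429 and mir-200b-p5 of epithelium, miR-217 of pancreas and mir-223-p5). The part of these cell types in the values of the cluster was not tested.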

How the data were processed

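The labels' protocols give Trizol extraction of total spleen RNA, TruSeq small RNA libraries, and read filtering in ACGT101-miR against adapter dimers, junk and low-complexity sequence, other RNA classes and repeats. For the aligner, genome build, miRNA database and scaling, the sources used here give nothing. Per the file headers, the deposited table holds normalised read numbers, a signal that the authors scaled for each of 9 libraries, and not a count. In each library 88% to 92.2% of values above 0 were whole multiples of 1 step (tolerance 0.01), taking the commonest low value as 5 reads; others include reads split over entries. Sums of values ran from 6.22 to 7.96 M (M, 1000000) per library and went with age. They were 6.22 to 6.65 M at day 30, 6.47 to 7.10 M at day 90 and 7.27 to 7.96 M at day 210. Without counts, no counting intervals are given.

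Entries that repeated the sequence and values of another were dropped. limma 3.58.1 in R 4.3.3 was applied to log2(value + 1), with 1 mean for each age, all 9 libraries and a mean-variance trend, on entries that reached a value of 5 in 3 or more libraries. Calls are at a Benjamini-Hochberg adjusted p under 0.05. Tables and plots were made with Python 3.11.15. The procedure was tested on simulated data. The members, lists and tests were chosen with earlier results of these data known. Named are all members, the 10 nearest profiles, and from each list its most abundant and its called entries. Alternatives were another pseudocount, filters, scalings, a common floor, variance models, a replicate block, fewer ages, pig miRNAs only and each library left out.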

Additional observations from a re-analysis of the deposited data

How the results depend on the processing

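Across the 3 pairwise comparisons the 8 tested members gave 476 values under the alternatives. Of these 2 changed direction, both of miR-424-5p at day 210 against day 30, which stood at 0.10 without day 30 replicate 3 and 0.18 without day 210 replicate 2, and 19 passed a threshold missed in the main analysis, among them 5 with sample weights, 3 with only the 2 ages compared and 3 with the common floor. One was miR-542-5p, which entered the test through day 210. miR-424-3p passed at day 90 against day 30 in 6 of 20 alternatives (adjusted p from 0.00996 to 0.296 over the 20), and its F call held in 10 of 19. The log2 ratio of the summed members ran from -0.98 to -0.72 at day 90 against day 30, from -0.74 to -0.33 at day 210 against day 30 and from 0.20 to 0.55 at day 210 against day 90. The count of called entries, used as the background, was less stable. At day 90 against day 30 it was 13 with the common floor, 81 with sample weights and 29 with only the 2 ages, and 1 to 20 with 1 library left out. At day 210 against day 30 it was 92 with equal sums, 38 with the common floor, 109 with sample weights and 11 with only the 2 ages, and 9 to 90 with 1 library left out. At day 210 against day 90 it was 24 without the trend, 100 with sample weights and 14 with only the 2 ages, and 8 to 112 with 1 library left out. For the F test it was 37 without the trend and 168 with sample weights, and 20 to 136 with 1 library left out. Equal sums moved the split of calls at day 210 against day 30 from 29 higher and 29 lower to 21 and 71, and that at day 210 against day 90 from 26 and 25 to 20 and 35, with the median of all entries at -0.38 and -0.31. Equal sums divided the day 210 libraries by 1.047 to 1.146, those of day 90 by 0.931 to 1.023 and those of day 30 by 0.896 to 0.957. Day 210 values were thereby lowered against the earlier ages. Why the sums differed with age, and the cause of the other changes, was not tested. With the replicate block 1 entry was called at day 90 against day 30. The labels do not say whether same-numbered libraries share more than a number. Their deviations correlated between -0.10 and 0.19, and the best match had the same number in 6 of 18 cases. With only 3 libraries per age, whose deviations from their mean are tied to each other, these values cannot decide it. Depth limits miR-450c-3p and miR-542-5p, which held between 5 and 12 estimated reads where above 0, and miR-542-3p where it was listed at 0.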
